A study of Mus musculus with 56 samples.

Results

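2210407C18Rik is a mouse gene that carries only the name of a RIKEN complementary DNA clone, and its 24-h profile in heart is described here under daytime- and nighttime-restricted feeding. It is 1 of 22864 genes listed, and it was chosen by its measured level, as the gene with the largest consistent fall in mean level under daytime feeding. The level difference between the regimens is therefore given as a description with no test, whereas the rhythm and the time effect within a regimen were no part of the rule.

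Hearts came from female C57BL/6J mice, an inbred strain, aged 9 weeks and housed in a cycle of 12 h light and 12 h dark. All mice fed freely for 7 days of acclimation and for the next 7 days had food either only while the lights were on (DRF, restricted to daytime) or only while they were off (NRF, restricted to nighttime, the control, as mice are night feeders). Hearts were collected every 4 h from ZT0 to ZT24 (zeitgeber time, hours after lights on), which gave 14 groups of 4 replicates and 56 libraries. No allele or drug was involved. The labels do not say whether each library came from a separate mouse, so p-values measure the spread between these libraries, and as each heart was sampled once, no mouse was followed over time.

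Feeding time is a strong timing cue for the clocks of peripheral tissues, while light sets the master clock in the brain. Inside each cell a loop of transcription factors and their repressors drives daily rhythms of many transcripts, and hormones, temperature and nutrients drive others. The heart switches between fatty acids, ketone bodies and glucose as food comes and goes, and many of its metabolic transcripts follow the meal. For 2210407C18Rik itself, no function is stated in the annotation used here.

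The gene (ENSMUSG00000037145) lies on the minus strand of chromosome 11, from 58608204 to 58616075 in GRCm38, and is annotated as protein coding in GENCODE M21. It has 3 annotated transcripts. Transcript 201 has 6 exons and starts at 58613492, and transcript 202 has 7 exons and starts farther upstream at 58616075. Both carry the same coding sequence of 660 bases between 58608331 and 58612878, so they differ in the untranslated leader. Transcript 203 has 2 exons and no coding sequence. The union of the exons is 1399 bases, no annotated gene overlaps it, and the values cannot tell the transcripts apart.

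The start of transcript 201 is also the start that RefSeq gives. The bases before it are printed to show 1 of the 2 annotated promoters of the coding transcripts, as held in the RefSeq table for build GRCm38.p6. Capitals mark a full cAMP response element (TGACGTCA) and a TATA box (TATAAA).
2210407C18Rik, chr11:58613493-58613742, minus strand: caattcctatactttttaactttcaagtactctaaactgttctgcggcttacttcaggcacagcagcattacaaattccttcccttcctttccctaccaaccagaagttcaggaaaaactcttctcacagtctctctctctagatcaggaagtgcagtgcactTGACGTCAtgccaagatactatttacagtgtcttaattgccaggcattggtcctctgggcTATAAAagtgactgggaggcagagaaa

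The cAMP response element spans positions -87 to -80 from the start, is its own reverse complement and was in 1.55% of 32851 windows of 250 bases before RefSeq starts. Its core (TGACG, both strands) therefore matched 2 times, within the full element, and was in 17.8% of windows. The TATA box, searched on the given strand, spans -27 to -22 and was in 7.59% of windows. A core motif of glucocorticoid response elements (AGAACA, both strands, 16.1% of windows) matched 1 time, on the reverse strand at -213 to -208. The window held no match on either strand to the E-box (CACGTG, 6.02% of windows), the E-prime box (CACGTT, 3.85%), the D-box (TTATGTAA or TTACGTAA, 0.931%), the ROR core motif (AGGTCA, 14.02%) or the FOXO site (GTAAACA, 3.17%). The window held 43.2% G and C, against a median of 52.4%, and 2 CG dinucleotides, against a median of 6. The full element and the TATA box were added to the search after the sequence had been seen. A match is a string of letters in 1 window, and binding of a factor was not measured.

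Levels are given in TPM (reads per base of exon, brought to a common total), recomputed from whole reads recovered from the deposited values. The libraries held 29434113 to 53050991 recovered reads, and mitochondrially encoded genes took 21.7% ± 1.46 of them under DRF and 20.4% ± 1.57 under NRF (SD, n = 28). The heart label held against its markers, since the 8 cardiomyocyte markers summed to 28728 to 44072 TPM in every library. Each library was compared with the mean of the other libraries of its own group, and with the 13 other group means, over the 1080 genes with the lowest limma p for a different rhythm between regimens, the clock list and 2210407C18Rik left out. The library labelled DRF ZT4 replicate 1 correlated with its own group at r = -0.237 and with NRF ZT8 at 0.791. The library labelled NRF ZT8 replicate 1 correlated with its own group at -0.13 and with DRF ZT4 at 0.736. Each thus went against its label toward the other's group, and the level, the rhythm and the likeness to other genes are given with and without these 2 libraries. Another library, NRF ZT4 replicate 3, was slightly nearer to DRF ZT24 (0.619) than to its own group (0.553), and the other 53 were nearest to a group of their own regimen. No samples were moved to another group, and no pair of libraries was identical.

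The level of 2210407C18Rik was moderate and was lower under DRF at every ZT. Its mean over all libraries was 14.9 TPM, above 62.3% of the 13891 genes tested. Under DRF it averaged 8.69 ± 2.82 TPM (SD, n = 28), with a lowest value of 4.34, a median of 8.32 and a highest of 15.6 TPM. Under NRF it averaged 21.1 ± 7.83 TPM (SD, n = 28), with a lowest value of 5.14, a median of 20.9 and a highest of 43.6 TPM. Of the NRF libraries 20 of 28 were above every DRF library, or 25 of 27 without the 2 libraries. Of the DRF libraries 3 of 28 were below every NRF library, or 25 of 27 without the 2 libraries. These values rested on 107 to 392 reads per library under DRF and 96 to 1122 under NRF.

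At ZT0 the replicates stood at 7.18, 5.38, 9.69 and 5.03 TPM under DRF. Under NRF at ZT0 they stood at 21.9, 20.8, 15.2 and 12.8 TPM, so that the groups did not overlap. At ZT4 the DRF replicates were 15.6, 5.73, 6.86 and 4.34 TPM, and the highest is the library that went against its label. The NRF replicates at ZT4 were 14.8, 16.6, 21.1 and 18.04 TPM, and the groups overlapped through that 1 DRF library. At ZT8 the DRF replicates were 5.11, 9.81, 6.95 and 7.40 TPM. The NRF replicates at ZT8 were 5.14, 22.6, 12.7 and 20.5 TPM, and again only the library that went against its label, the lowest, lay among the other regimen's values.

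At ZT12, when food was withdrawn under DRF and given under NRF, the DRF replicates were 9.05, 13.01, 6.73 and 13.1 TPM. Under NRF they were 28.6, 19.8, 21.9 and 21.1 TPM, all above the DRF values. At ZT16 the DRF replicates were 11.9, 8.67, 11.9 and 7.96 TPM. The NRF replicates at ZT16 were 43.6, 38.5, 24.1 and 26.3 TPM, the highest level and a wide spread. At ZT20 the DRF replicates were 8.82, 7.14, 6.55 and 12.2 TPM. The NRF replicates at ZT20 were 26.6, 18.8, 27.5 and 23.9 TPM, with no overlap. At ZT24 the DRF replicates were 7.71, 10.8, 8.81 and 9.84 TPM. The NRF replicates at ZT24 were 15.5, 13.3, 24.9 and 13.3 TPM, above the DRF values by the smallest ratio of means.

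**Figure D1:**
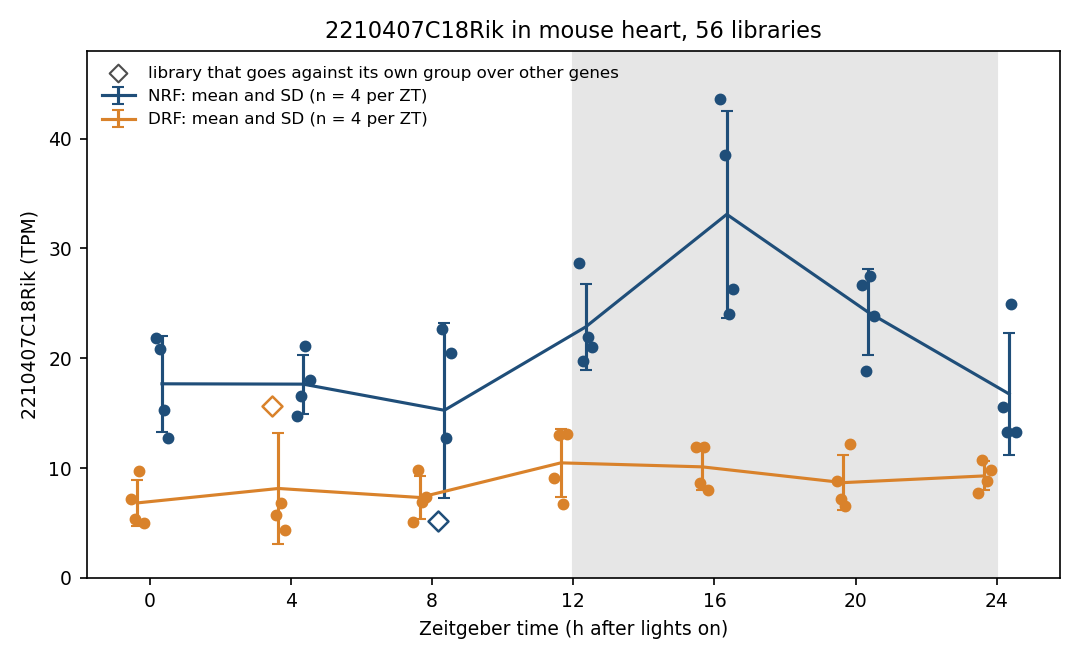
Level of 2210407C18Rik (TPM, vertical axis) against zeitgeber time (h, horizontal axis) in 28 DRF and 28 NRF libraries; points are libraries, lines join the group means, bars are SD (n = 4), the grey area is the dark phase, and open diamonds are the 2 libraries that went against their own groups over other genes. Every NRF mean is above every DRF mean, the NRF mean is highest at ZT16 (33.1 TPM), and the diamonds are the only points that lie among the other regimen's points at their ZT.

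The mean difference, DRF minus NRF, was -1.16 on the log2(TPM + 1) scale (SE 0.11), and the NRF mean was 2.43 times the DRF mean. The size chose the gene and has no test here. The DRF group mean was below the NRF group mean at 7 of 7 ZTs, as in 8.09% of the genes tested. DRF lay below NRF without overlap at 5 of 7 ZTs, a count reached by 0.0504% of the genes. Both counts draw on the values that chose the gene and give the difference no support of their own. For scale, 24.3% of the genes were called lower under DRF by limma and 26% were called in either direction, with a median difference over all genes of -0.05. After median-of-ratios rescaling 7.34% were called lower and 5.82% higher, with a median difference of 0.004. The NRF to DRF ratio ran from 1.80 at ZT24 to 3.28 at ZT16. Without the 2 libraries the difference was -1.26 (SE 0.09), the ratio of means was 2.57, and the groups overlapped at 0 of the 7 ZTs. The difference was between -1.26 and -1.07 in all other settings tried for scale, filter, model or library.

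The order of the 14 group means followed the regimen first. The 7 NRF groups took the upper places, from ZT16 (33.1 ± 9.44 TPM) and ZT20 (24.2 ± 3.92) over ZT12 (22.8 ± 3.95), ZT0 (17.7 ± 4.37), ZT4 (17.6 ± 2.69) and ZT24 (16.7 ± 5.56) down to ZT8 (15.3 ± 7.98; SD, n = 4 each). The DRF groups followed from ZT12 (10.5 ± 3.13 TPM), ZT16 (10.1 ± 2.09) and ZT24 (9.28 ± 1.32) over ZT20 (8.67 ± 2.52), ZT4 (8.14 ± 5.10) and ZT8 (7.32 ± 1.94) down to ZT0 (6.82 ± 2.13; SD, n = 4 each). None of the 13 steps between neighbours in this order exceeded the pooled SD within groups of 0.43 (log2), the largest being 0.41, between NRF ZT16 and NRF ZT20. That SD is one of single libraries, and the SE of a step was 0.30. The steps after NRF ZT16 (0.41), NRF ZT12 (0.37) and NRF ZT8 (0.37) were larger than this SE. With the 2 libraries left out the pooled SD was 0.33, and 2 steps exceeded it, that from NRF ZT16 to NRF ZT20 (0.41) and that from NRF ZT24, then the lowest NRF group, to DRF ZT12 (0.63). Without the library that went against its label, NRF ZT8 stood at 18.6 ± 5.21 TPM (SD, n = 3) and DRF ZT4 at 5.64 ± 1.26 TPM (SD, n = 3).

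The replicates spread widely. Counting error alone would give a coefficient of variation of 3.41% to 8.30% in the 14 groups, and the measured one, which also holds the differences between samples, was 14.2% to 62.6%. Its upper end was that of DRF ZT4, and with the 2 libraries left out the highest was 33.2%, in NRF ZT24. The pooled SD of 0.43 was higher than that of 98.1% of the 1395 other genes tested whose mean level was within 1.2 times its own, with a median of 0.13. Within a regimen, differences between ZTs took up 24.8% of the variance of the log2 level under DRF and 48.3% under NRF, or 45.1% and 55.8% without the 2 libraries. The pooled SD within ZTs was then 0.33 under both regimens, against 0.41 under DRF and 0.45 under NRF with all libraries.

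The rhythm within a regimen was not used by the rule and was tested. Under NRF 2210407C18Rik oscillated, with a log2 amplitude of 0.50 (SE 0.13) and a peak at ZT16.7 (SE 0.875 h), in the dark phase during feeding (limma F test of a 24-h harmonic, adjusted p = 0.00502). Fitted peak and trough differed 2.01-fold on the TPM + 1 scale. Of the genes tested, 37.2% were called rhythmic under NRF, and the amplitude was above that of 98.3% of them all. A wide spread raises a fitted amplitude, and the DRF amplitude, which was not called, was above that of 88.1%. The time effect over the 7 ZTs, which assumes no wave form, passed as well (F = 3.83, limma adjusted p = 0.0158; called in 31.6% of genes). Without ZT16 the rhythm under NRF did not pass (amplitude 0.40, limma adjusted p = 0.126), nor did the time effect (F = 1.98, limma adjusted p = 0.225). Neither call thus held without that time point. The fitted peak was then at ZT16.8, and the SE of the amplitude was 0.17 in place of 0.13. The time effect also missed the threshold without NRF ZT16 replicate 1 (F = 2.85, limma adjusted p = 0.0631) or replicate 2 (F = 3.00, limma adjusted p = 0.0510), the highest libraries of the gene. It was likewise lost without replicate number 1 (limma adjusted p = 0.133), 2 (0.0511) or 3 (0.0588) and held without replicate number 4 alone of the 4 (0.0325).

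Under DRF the fitted log2 amplitude was 0.22 (SE 0.11) with a peak at ZT15.6 (SE 1.85 h), and the rhythm did not pass the test (limma adjusted p = 0.218; 32.3% of genes were called). A call under NRF and none under DRF was found in 19.7% of genes and is no test of a difference between them. The time effect did not pass either (F = 1.14, limma adjusted p = 0.444; 35.8% of genes were called). The call depended on 1 library. Without DRF ZT4 replicate 1, alone or together with NRF ZT8 replicate 1, the DRF amplitude was 0.31 (SE 0.10), the peak was at ZT15.9 and the limma adjusted p was 0.0392. Without both libraries the time effect under DRF also passed (F = 2.96, limma adjusted p = 0.0425), and the NRF rhythm had an amplitude of 0.43 (SE 0.09), a peak at ZT15.7 and a limma adjusted p of 0.000833.

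**Figure D2:**
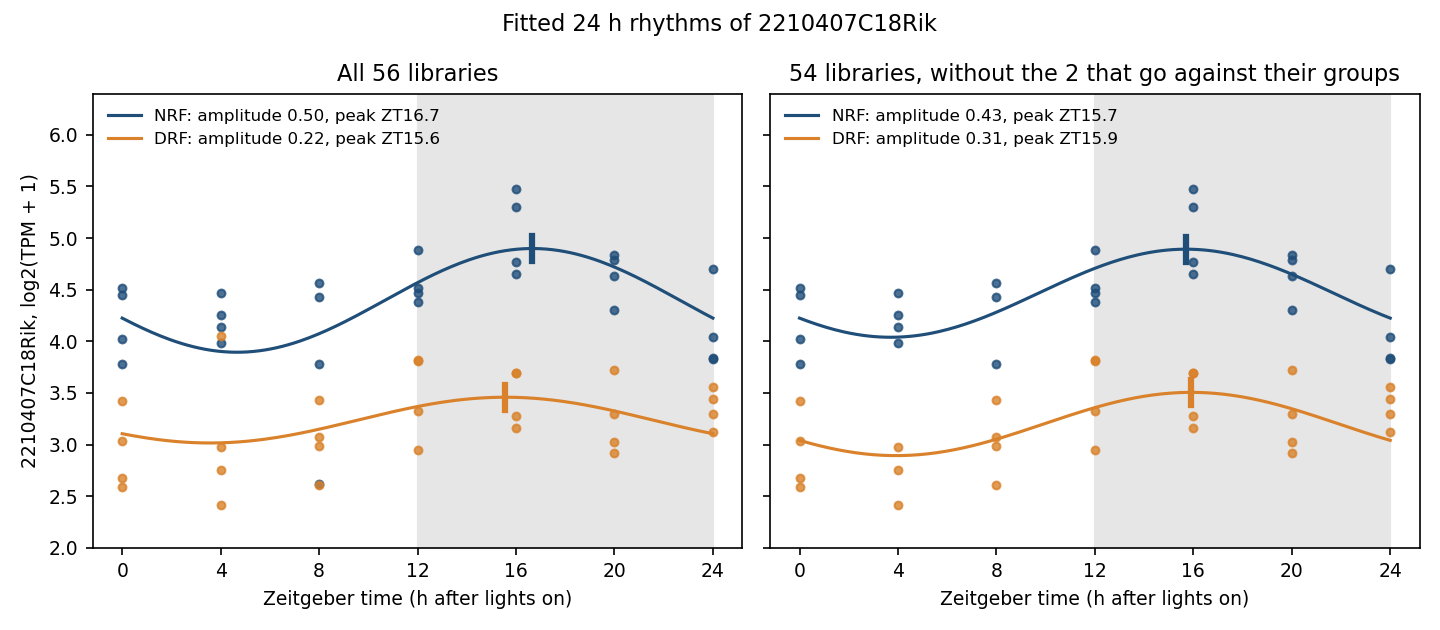
Fitted 24-h cosine curves of 2210407C18Rik on the log2(TPM + 1) scale (vertical axis) against zeitgeber time (h, horizontal axis), with all 56 libraries on the left and with the 54 that remain without DRF ZT4 replicate 1 and NRF ZT8 replicate 1 on the right; points are libraries, short bars mark fitted peaks and the grey area is the dark phase. On the left the amplitudes are 0.50 (NRF) and 0.22 (DRF), on the right 0.43 and 0.31, with peaks between ZT15.6 and ZT16.7 in all 4 curves.

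The rhythms of the 2 regimens were not shown to differ. The rule asked for a consistent fall over the ZTs, so the tests between regimens are not fully independent of it. The interaction of regimen with the 24-h terms had a size of 0.30 on the log2 scale and did not pass (limma adjusted p = 0.360; 27.5% of genes were called). The phase difference, DRF minus NRF, which includes the DRF curve that was not called, was -1.10 h (SE 2.05; 95% interval -5.11 to 2.91 h) and did not pass (permutation test, two-sided, 100000 resamples, adjusted p = 0.578). As the DRF rhythm was not called, its peak is poorly defined, and this interval cannot decide on a shift of 12 h. The amplitude difference was -0.28 (SE 0.17; 95% interval -0.61 to 0.05) and did not pass (permutation test, two-sided, p = 0.103, adjusted p = 0.207). It was -0.07 without replicate 1 (adjusted permutation p = 0.873) and -0.44 without replicate 4 (adjusted permutation p = 0.0675). Without the 2 libraries the phase difference was 0.216 h (SE 1.39; 95% interval -2.51 to 2.94; adjusted permutation p = 0.876), the amplitude difference was -0.12 (SE 0.13; adjusted permutation p = 0.722), and the interaction had a limma adjusted p of 0.730.

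No 12-h component and no difference between the first and the last time point were called. The 12-h terms added to the 24-h terms had a log2 amplitude of 0.23 under NRF (limma adjusted p = 0.895) and 0.10 under DRF (limma adjusted p = 0.798). Under NRF limma called 0 of the 13891 genes (0%) for this component, with 807 at an unadjusted p under 0.05 and 7 called by voom, and under DRF it called 0.209%. These counts moved with the libraries used. Under DRF 29 genes were called with all libraries and 518 without the 2 libraries, and under NRF 11 without them. ZT24 and ZT0 are the same clock time on successive days. Their difference was -0.09 under NRF (SE 0.29; 95% interval -0.66 to 0.48; limma adjusted p = 0.944; 0.0576% of genes were called). Under DRF it was 0.42 (SE 0.29; 95% interval -0.15 to 0.99; limma adjusted p = 0.583; 0.425% of genes were called).

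Bulk RNA cannot tell fewer cells of a type from less RNA per cell, so the marker lists are given beside the level difference. Markers of several cell types other than cardiomyocytes were lower under DRF by limma, where 24.3% of all genes were. All 6 endothelial markers were called lower, with a summed level of 492 to 799 TPM under DRF and 539 to 924 TPM under NRF. So were 4 of 6 fibroblast markers (471 to 794 and 510 to 839 TPM), 4 of 6 smooth muscle and pericyte markers (560 to 801 and 632 to 1028 TPM) and 5 of 6 macrophage markers (289 to 605 and 288 to 635 TPM). The median log2 differences of these 4 lists were -0.15, -0.15, -0.20 and -0.21, against -1.16 for 2210407C18Rik and -0.05 for all genes. After median-of-ratios rescaling their calls were 2, 2, 2 and 3, all lower, beside 7.34% of all genes, and the medians stayed negative. All markers of these 4 lists reached the minimum of 1 TPM. Their part in the level difference was not tested.

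The other marker lists showed few calls, and 1.67% of all genes were called higher under DRF. Of the 8 cardiomyocyte markers 1 was called higher and 1 lower, and of the 5 atrial markers 1 was called higher. The atrial sum ranged from 95.0 to 5484 TPM under DRF and from 129 to 4397 TPM under NRF, with medians of 1804 and 609 TPM. The median log2 difference of the atrial list was 1.16, of the same size as that of 2210407C18Rik and of opposite sign, although only 1 of its genes passed the test and none after median-of-ratios rescaling or without the 2 libraries. Its part in the level difference was not tested. For erythroid (5 markers), adipocyte (6), mesothelial (5) and lymphocyte genes (2 of 6 tested) there were no calls. Among 3 tested nerve markers and 3 tested lung and liver markers 1 each was called higher, and among 2 tested skeletal muscle markers 1 was called lower. The skeletal myosins Myh1 and Myh4 were not listed.

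Within groups, the level of 2210407C18Rik was set against 15 measures of the libraries, namely depth, the mitochondrial share and the 13 marker sums, as deviations from the group means (n = 56). None of the 15 passed after adjustment. Depth gave Pearson's r = 0.0868 (permutation p = 0.647, adjusted p = 0.747) and Spearman's rho = -0.0540 (permutation p = 0.734, adjusted p = 0.974), and r = -0.0276 without the 2 libraries farthest from the median depth. Without the 2 libraries that went against their labels it was -0.246. The mitochondrial share gave r = -0.125 (permutation p = 0.507, adjusted p = 0.747) and rho = -0.117 (permutation p = 0.486, adjusted p = 0.898), and r = -0.194 without the 2 farthest. The highest r was that of the macrophage sum, at 0.382 (permutation p = 0.0876, adjusted p = 0.329), with rho = 0.282 (permutation p = 0.0850, adjusted p = 0.319). It was 0.187 without the 2 farthest libraries and so rested on them. The endothelial sum followed with r = 0.354 (permutation p = 0.0253, adjusted p = 0.329) and rho = 0.312 (permutation p = 0.0443, adjusted p = 0.228), and r = 0.335 without the 2 farthest. The smooth muscle and pericyte sum had the highest rho, at 0.345 (permutation p = 0.0178, adjusted p = 0.228), with r = 0.267 (permutation p = 0.0454, adjusted p = 0.329), and r = 0.236 without the 2 farthest. Without the 2 libraries that went against their labels, the r of the smooth muscle and pericyte sum was 0.396, that of the endothelial sum 0.333, that of the macrophage sum 0.310 and that of the mitochondrial share -0.180. No sequencing batch is named in the labels, and no within-batch value could be made.

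The genes whose 14 group means most resembled those of 2210407C18Rik are named with Pearson's r and Spearman's rho and no p, since they are the extremes of 13891 genes. All 14 points carry the regimen difference that chose the gene, which raises r for genes with a level difference of the same sign. Lamp1, a membrane glycoprotein of lysosomes, was nearest (r = 0.92, rho = 0.94). Its level was 338 TPM under DRF and 370 TPM under NRF, a far smaller difference than in 2210407C18Rik. Oxct1, the enzyme that activates ketone bodies for oxidation, followed (r = 0.91, rho = 0.89), with 545 TPM under DRF and 646 TPM under NRF. Plod3 (a lysyl hydroxylase of collagen; r = 0.90, rho = 0.89), Fads3 (of the fatty acid desaturase family; r = 0.90, rho = 0.83) and Tmem38a (an ion channel of the sarcoplasmic reticulum; r = 0.88, rho = 0.79) came next. Rapgef1 (an exchange factor for Rap proteins; r = 0.87, rho = 0.81) and Sh3bgr (r = 0.87, rho = 0.86) were also among the 8 highest.

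The opposite end held Eci1, an isomerase in the oxidation of unsaturated fatty acids (r = -0.90, rho = -0.92), with 591 TPM under DRF and 530 TPM under NRF. It also held Pla2g16, a phospholipase (r = -0.90, rho = -0.85), Gm36670 (r = -0.85, rho = -0.85) and Ramp1, a partner of the calcitonin-like receptor (r = -0.85, rho = -0.82). Over all genes the median r was 0.16, and 48 genes reached 0.8 and 4 reached -0.8. Without the 2 libraries 6 of the 8 highest and all 4 lowest were named again by the same rule. With each regimen centred on its own mean, which leaves only the course over the day, the r of Lamp1 was 0.63, that of Oxct1 0.57, that of Plod3 0.77 and that of Eci1 -0.62. Of all genes 4.23% then reached 0.6 and 8.29% reached -0.6, or 4.21% and 8.32% without the 2 libraries. With the 2 libraries left out as well, these r were 0.61, 0.61, 0.52 and -0.61. Among the 5 nearest by the course over the day alone were Dennd5b (r = 0.94, rho = 0.89), Zfp970 (r = 0.91, rho = 0.84) and Gpbp1 (r = 0.88, rho = 0.87). The opposite end held Pym1 (r = -0.92, rho = -0.86) and Pik3r6 (r = -0.90, rho = -0.88). Their r with the 2 libraries left out were 0.81, 0.85 and 0.68 at the upper end and -0.88 and -0.72 at the lower. This centring was added after the data had been seen.

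**Figure D3:**
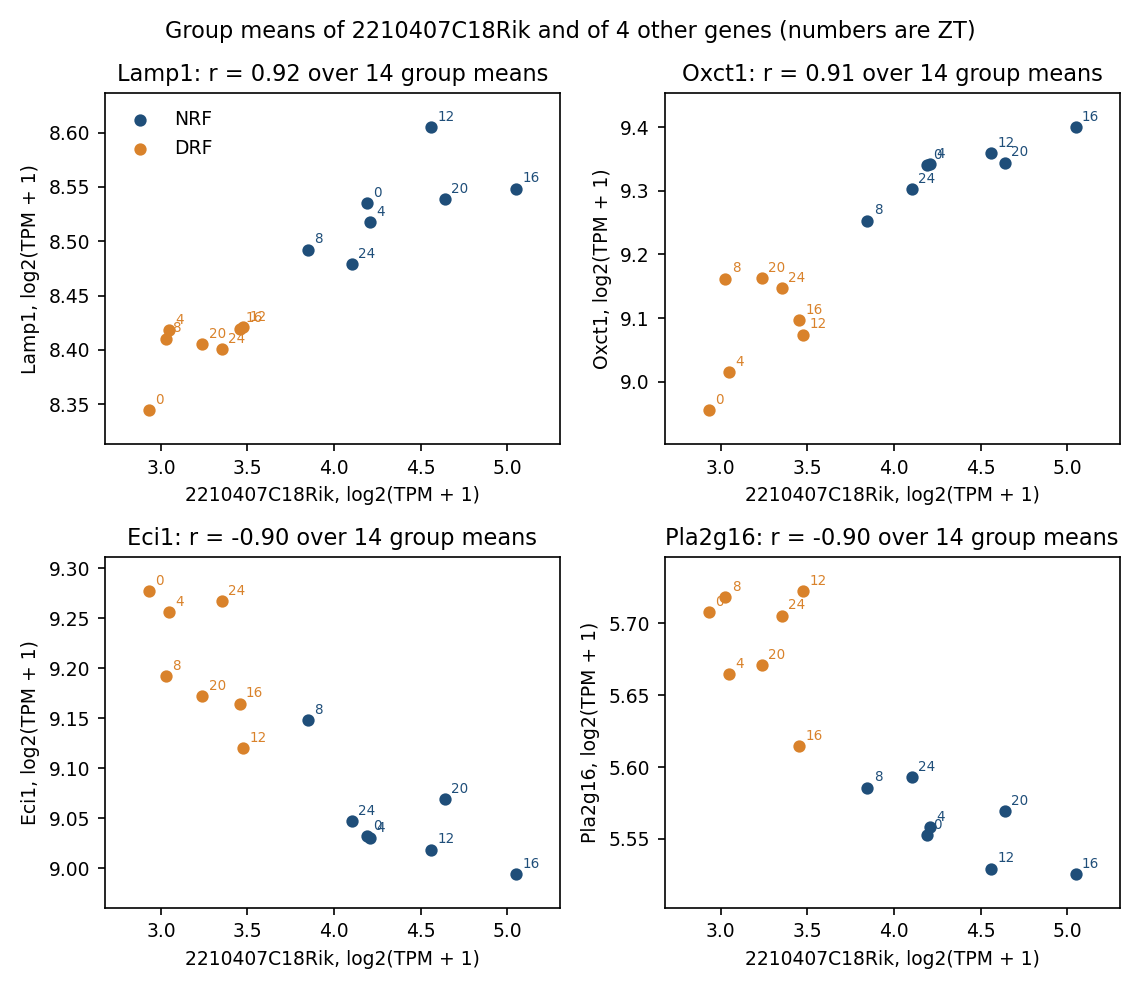
Group means (log2(TPM + 1), n = 4 per point) of Lamp1, Oxct1, Eci1 and Pla2g16 (vertical axes, not starting at 0) against those of 2210407C18Rik (horizontal axes) for the 7 DRF and 7 NRF groups, each numbered by its ZT. Lamp1 (r = 0.92) and Oxct1 (r = 0.91) are higher in the NRF groups, Pla2g16 (r = -0.90) in the DRF groups and Eci1 (r = -0.90) in most DRF groups. The vertical range is narrow in all 4 panels.

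Within groups, where neither the labelled regimen nor the labelled ZT enters, other genes were nearest, and their r changed without the 2 libraries. As these 2 went against their labels, their deviations can carry differences of regimen and ZT. Over the deviations of 56 libraries the highest r were those of Baz1a (a chromatin remodelling subunit; r = 0.69, rho = 0.73), Prkg1 (a cGMP-dependent kinase; r = 0.68, rho = 0.59), Mfsd1 (r = 0.68, rho = 0.54), Slc2a9 (a urate transporter; r = 0.67, rho = 0.54) and Myo5a (a myosin motor; r = 0.67, rho = 0.56). Among the 5 lowest were those of Cxadr (an adhesion protein; r = -0.65, rho = -0.45), Lrrc4b (r = -0.63, rho = -0.54), Nfil3 (a repressor in clock output; r = -0.61, rho = -0.25) and Hspb3 (a small heat shock protein; r = -0.59, rho = -0.38). Without the 2 libraries Baz1a kept an r of 0.64, whereas Nfil3 was at -0.12. Only Baz1a and Lrrc4b were then named again, and the number of genes with an r of at least 0.6 was 1 in place of 56.

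Over the 28 NRF libraries, where the course over the day enters, the 5 highest r included those of Ms4a6d (r = 0.78, rho = 0.71), Lyve1 (a hyaluronan receptor of lymphatic vessels and some macrophages; r = 0.74, rho = 0.73), Fkbp5 (a co-chaperone induced by glucocorticoids; r = 0.72, rho = 0.65) and Ccl6 (a chemokine; r = 0.69, rho = 0.51). The lowest were those of Ppp1r14c (r = -0.76, rho = -0.72), Nlrp10 (r = -0.76, rho = -0.68), Lrrc4b (r = -0.75, rho = -0.75), Coq8a (of coenzyme Q synthesis; r = -0.72, rho = -0.68) and Ttll1 (a tubulin polyglutamylase; r = -0.72, rho = -0.79). Without NRF ZT8 replicate 1 these r were 0.48 to 0.73 and -0.78 to -0.66, and 3 of the 10 were named again (Lyve1, Lrrc4b and Ttll1).

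Over the 28 DRF libraries the highest were Atp11a (a phospholipid flippase; r = 0.75, rho = 0.71), Washc4 (of the WASH complex of endosomes; r = 0.72, rho = 0.74), Ccne2 (cyclin E2; r = 0.70, rho = 0.68), Wdr76 (r = 0.69, rho = 0.65) and Pde8a (a cAMP phosphodiesterase; r = 0.69, rho = 0.68). The lowest were Rpl36-ps3 (r = -0.61, rho = -0.58), Map2k3os (r = -0.59, rho = -0.57), Trmt61b (r = -0.58, rho = -0.58), Spsb3 (r = -0.58, rho = -0.49) and Eci1 (r = -0.57, rho = -0.58). Rpl36-ps3 is a pseudogene and Map2k3os an antisense gene, and reads of close copies or of the other strand may count to them. Without DRF ZT4 replicate 1, 6 of the 10 were named again. Of all names above, Eci1 was among the lowest both over group means and over DRF libraries, and Lrrc4b both over deviations and over NRF libraries. Without DRF ZT4 replicate 1, Eci1 (r = -0.50) was no longer named over DRF libraries.

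The clock, hormone, fasting and temperature lists were set beside the gene to place it among known daily programmes. The core clock list held the activators, repressors and output factors of the cell's oscillator. All 18 were rhythmic under NRF and 16 under DRF, and all 18 had a different rhythm, beside 37.2%, 32.3% and 27.5% of all genes. Their r with 2210407C18Rik over the group means ran from -0.28 to 0.55 with a median of 0.11, beside 0.16 for all genes. Over the deviations within groups the median r of the list was 0.42, beside 0.18 for all genes, and with the 2 libraries left out it was 0.09, beside 0.15. The highest were the repressors Cry1 (r = 0.55, rho = 0.49; 12.4 ± 3.86 TPM under DRF and 16.6 ± 6.66 under NRF, SD, n = 28) and Ciart (r = 0.43, rho = 0.27). The lowest were the activator Npas2 (r = -0.28, rho = -0.32) and the repressor Nr1d1 (r = -0.24, rho = -0.31). With the 2 libraries left out, r was 0.43 for Cry1, 0.50 for Ciart, -0.34 for Npas2 and -0.16 for Nr1d1, so that the order of Cry1 and Ciart turned. In mean level 1 clock gene was called higher and 3 lower under DRF, with a list median of 0.06, beside 1.67% and 24.3% of all genes. After median-of-ratios rescaling 4 were called higher and 2 lower, beside 5.82% and 7.34%.

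Of the 14 fasting and FOXO responsive genes, 4 had a higher mean level by limma under DRF and 0 a lower one, with a median log2 difference of 0.10, where 1.67% of all genes were called higher. The count was 4 or 5 under each other scaling, and 5 after median-of-ratios rescaling, where the share of all genes was 5.82%. Pdk4, an inhibitory kinase of pyruvate oxidation, was among the 2 lowest in r (r = -0.50, rho = -0.45; log2 difference 0.75, limma adjusted p = 0.00267). The highest were Irs2 (an adaptor of the insulin receptor; r = 0.44, rho = 0.34) and Foxo3 (a transcription factor restrained by insulin; r = 0.06, rho = -0.02). Rhythms were called in 9 of these genes under NRF and in 12 under DRF, and 12 differed in rhythm, beside 37.2%, 32.3% and 27.5% of all genes. The r without the 2 libraries was -0.43 for Pdk4, 0.46 for Irs2 and 0.15 for Foxo3.

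Of the 12 glucocorticoid responsive genes none was called in mean level (0 by limma in each direction; 1 was called higher after median-of-ratios rescaling, and 1 lower without the 2 libraries), and the median was 0.07. Rhythms were called in 9 under NRF and 8 under DRF, and 6 had a different rhythm, against the shares of all genes given above. The r values lay close together, from -0.09 for Klf9 (rho = -0.09) and -0.06 for Klf15 (rho = -0.15) to 0.22 for Sgk1 (rho = 0.26) and 0.25 for Dusp1 (rho = 0.11). Those of Klf9 (0.05) and Klf15 (0.08) changed sign without the 2 libraries, and those of Sgk1 (0.21) and Dusp1 (0.31) did not. Of the 11 temperature responsive genes 1 was called lower in mean level, beside 24.3% of all genes, with a median of -0.04 that turned to 0.02 after median-of-ratios rescaling, where none was called. Rhythms were called in 10 of them for NRF and in 3 for DRF, the latter near the 32.3% of all genes, and 6 had a different rhythm. Their median r was 0.36, or 0.23 with the 2 libraries left out, beside 0.16 and 0.18 for all genes. The values ran from -0.42 for Cirbp (rho = -0.41) and -0.19 for Rbm3 (rho = -0.13), both induced by cold, to 0.43 for Hspb1 (rho = 0.38) and 0.45 for the chaperone Hsph1 (rho = 0.42). These 4 values without the 2 libraries were -0.33, -0.06, 0.25 and 0.30. No list had an r as high as those of the nearest genes.

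The next genes in the order of falls on the log2(TPM + 1) scale, given for comparison, had other profiles. That scale understates changes at low levels such as that of Ciart, so the order depends on it. Ciart, a clock repressor, averaged 2.37 ± 1.75 TPM in DRF and 5.87 ± 6.71 TPM in NRF libraries (SD, n = 28), with a log2 difference of -0.78, lower at 6 of 7 ZTs. Its amplitude was 1.35 under NRF and 0.60 under DRF. Bdh1, an enzyme that interconverts ketone bodies, averaged 27.3 ± 8.36 TPM in DRF and 44.8 ± 10.5 TPM in NRF libraries (SD, n = 28), with a difference of -0.73, lower at 7 of 7 ZTs. Its amplitude was 0.04 under NRF and 0.14 under DRF, and its r with 2210407C18Rik over group means was 0.83, or 0.84 with the 2 libraries left out. Those means carry the regimen difference that placed both genes. With each regimen centred, the r of Bdh1 was 0.21, or 0.11 without the 2 libraries. These differences, too, placed the genes in the order and have no test here.

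The neighbours of 2210407C18Rik on chromosome 11 did not share its difference. Of 37 annotated genes within 250 kb, 23 carry olfactory receptor symbols, 7 are listed and 3 reached the minimum of 1 TPM. Gm12251, a processed pseudogene (ENSMUSG00000084384, 58392769 to 58393560), averaged 36.4 ± 3.46 TPM in DRF and 36.4 ± 4.50 TPM in NRF libraries (log2 difference 0.02, limma adjusted p = 0.759). Gm12254, a processed pseudogene (ENSMUSG00000085342, 58508791 to 58509261), was at 4.96 ± 1.33 and 4.94 ± 1.09 TPM (difference 0.01, limma adjusted p = 0.949). Gm12258, annotated as protein coding (ENSMUSG00000072915, 58847158 to 58861956), was at 2.02 ± 0.324 and 1.95 ± 0.355 TPM (SD, n = 28 each; difference 0.02, limma adjusted p = 0.812). Their r over group means with 2210407C18Rik were 0.13, 0.03 and -0.09, or 0.10, -0.11 and 0.00 with the 2 libraries left out. Reads of the 2 pseudogenes may come from their parent genes. Trim58, the nearest listed gene at 24.4 kb upstream, averaged 0.0932 TPM in DRF and 0.0647 TPM in NRF libraries, Olfr224, 37.7 kb downstream, at 0.0978 and 0.0526, Fam183b at 0.219 and 0.165, and Lypd8 at 0.109 in both, under the minimum level. With no minimum level none of these 4 was called, with limma adjusted p from 0.176 for Olfr224 to 0.958 for Lypd8.

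**Figure D4:**
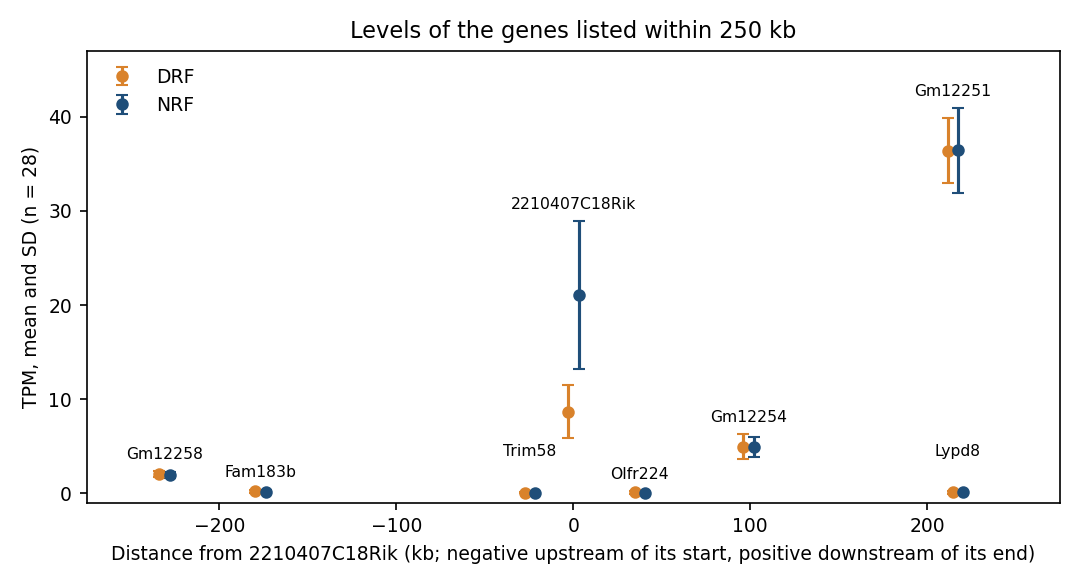
Mean level (TPM, vertical axis; bars are SD, n = 28 libraries) under DRF and NRF of 2210407C18Rik and of the 7 genes listed within 250 kb, placed by distance from it (kb, horizontal axis). The means of 2210407C18Rik are 8.69 and 21.1 TPM, whereas those of each neighbour lie on top of each other.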

How the data were processed

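PolyA RNA of mouse heart was sequenced as paired reads in 56 libraries. The submitters' processing notes name HISAT2 2.0.5, featureCounts 1.5.0-p3 and the build mm10, and the use of strand and the annotation are not given in the sources used here. The deposited values carry the name TPM but are no linear TPM. Per the files' values, the authors' deposited unit is a log2 transform, a library constant times log2(1 + reads scaled to depth) divided by exon length, and so counts as a unit of its own (other). The design had assumed linear TPM. Whole reads were therefore recovered with exon lengths from GENCODE M21, which held 22837 of 22864 identifiers. Among 1192303 values below 30000 reads, 99.9993% lay no farther than 0.1 from a whole number (lowest library 99.9907%), and those of 2210407C18Rik no farther than 6.6e-05. For 844 genes the length was searched for, 60 were too abundant for the test and 4 were left out. Whether a count is a read or a pair is not stated, and counting errors cover counting alone. All columns were mapped to samples through the labels.

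Linear TPM was computed from the reads, and the 13891 genes whose mean reached 1 TPM were tested on log2(TPM + 1), a scale that understates changes near 1 TPM, with limma 3.58.1 in R 4.3.3 (eBayes with trend, Benjamini-Hochberg adjusted p under 0.05). A harmonic of 24 h stood in for the rhythm tools of the study. Rhythms used the 28 libraries of a regimen, and differences used all 56. Phase and amplitude differences were tested, after each regimen was centred, by permuting regimen labels within ZT (100000 resamples, Python 3.11.15), with standard errors from the delta method and intervals of 1.96 SE. The methods were tested on simulated data. For the permutation test these had a larger amplitude and a smaller spread than 2210407C18Rik under DRF, so that case was not covered. Alternatives were a pseudocount of 0.1, the deposited values, median-of-ratios and nuclear-only scaling, voom, other minimum levels, a replicate block, and leaving out each library, replicate number or ZT.

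The gene, the pathway and marker lists and the tests were chosen with earlier results of these data known. Named genes were the 8 highest and 4 lowest r over group means, 5 at each end over the other sets, 2 at each end of each pathway list, the listed genes within 250 kb and the next 2 falls. Some genes that this rule names are not reported here.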

Additional observations from a re-analysis of the deposited data

Results flagged for a closer look

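In none of the 14 groups did a level of 2210407C18Rik lie far enough from the other 3 to be marked as an outlier. The same criterion (Dixon's ratio of gap to range above its 95% critical value for 4 samples) was applied to the correlation of each library with the mean of its own group over 1080 other genes, and marked 5 libraries, where chance marks about 1 in 20 groups. DRF ZT4 replicate 1 (-0.237, the others from 0.538 to 0.632) and NRF ZT8 replicate 1 (-0.13, the others from 0.583 to 0.72) went against their groups, as described above. DRF ZT16 replicate 1 was at 0.593, the others from 0.766 to 0.787. DRF ZT24 replicate 3 was at 0.715, the others from 0.804 to 0.818. NRF ZT16 replicate 2 was marked at the upper end, at 0.854, the others from 0.811 to 0.816.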

How the results depend on the processing

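The level difference of 2210407C18Rik and its sign held in all settings tried. The rhythm under NRF passed in 75 of 76 and lost its call without ZT16 (0.398). Leaving out single libraries or replicate numbers, its F of the time effect under NRF ran from 2.41 to 4.79. The call was lost without replicate 1, 2 or 3, without NRF ZT16 replicate 1 (2.85) or 2 (3.00), and without ZT16 (1.98). Under DRF the amplitude ran from 0.136 to 0.306 in the same way, and the rhythm passed only without DRF ZT4 replicate 1, alone or with NRF ZT8 replicate 1 (0.306). The F of the time effect under DRF ran from 0.663 to 2.48 in these cases. Without both libraries it was 2.96, past the threshold, and the phase difference, from -1.97 to -0.137 h with single libraries or replicate numbers left out, changed sign (0.216 h). ZT24 minus ZT0 under NRF ran from -0.343 to 0.0857, without a call. Genes with a different mean level numbered 3610 (232 higher and 3378 lower under DRF), 1900 with the deposited values (379 and 1521), 1827 with median-of-ratios rescaling (808 and 1019) and 1605 with nuclear genes only (367 and 1238). That number was 2504, 1622, 1182 and 3717 without replicates 1 to 4, ran from 1415 (without ZT8) to 4100 (without ZT4) with single ZTs left out, and was 4111 without the 2 libraries. The cause was not tested. Same-numbered libraries of the regimens did not deviate together (median r -0.0325 over 28 pairs, 1 over 0.1), and 6 of 56 libraries were closest to their own number, so the numbers do not pair the samples. With the replicate block the limma adjusted p of the NRF rhythm was 0.00832, that of the DRF rhythm 0.247, and no call of 2210407C18Rik changed. Counts of calls moved from 5170 to 5061 (rhythm NRF) and 4482 to 4466 (rhythm DRF), and from 29 to 76 for the 12-h component under DRF. Without replicates 1 to 4 the calls numbered 5243, 2813, 3162 and 3842 (rhythm NRF) and 2294, 2514, 2914 and 3573 (rhythm DRF). Those for a different rhythm numbered 3146, 2218, 1852 and 3283. ZT24 minus ZT0 could not be fitted without either ZT. The amplitude difference ran from -0.435 to -0.0676 with single replicate numbers left out, without a call. Counting error was 2.99% to 10.2% in single libraries.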
